A study of Mus musculus with 12 samples.

Results

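PU.1, encoded by Spi1, and its close relatives Spi-B (Spib) and Spi-C (Spic) were followed through the open chromatin around their genes in mouse blood progenitors and early T cell precursors. Every DNase I hypersensitive site (DHS, a short stretch of chromatin that the enzyme DNase I can reach) with its midpoint within 50 kb either side of the 3 gene bodies was taken. The members were 82 of 170207 DHSs, the union of peaks over 12 DNase-seq libraries. The Spi1 window held 34, the Spib window 29 and the Spic window 19. Genes were placed on mm10 with GENCODE release M21: Spi1 (ENSMUSG00000002111.8) at chr2:91082390-91115756 on the + strand, Spib (ENSMUSG00000008193.13) at chr7:44525993-44532071 on the - strand, and Spic (ENSMUSG00000004359.16) at chr10:88674772-88685015 on the - strand. Distances below run from the RefSeq transcript start (position 91096678 for Spi1, 44532071 for Spib and 88683023 for Spic), upstream or downstream along the strand of the gene.

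The groups were 3 libraries of LSK cells (Lin-SCA1+KIT+ progenitors sorted from the marrow of C57BL/6J mice and not cultured), 2 of DN1 cells (KIT++CD44+CD25-), 2 of DN2a cells (KIT++CD44+CD25+), 2 of DN2b cells (KIT+CD44loCD25+) and 3 of IgG cells. DN1, DN2a and DN2b cells grew from LSK cells on a high density of the immobilized Notch ligand Delta1, so no library stands for a low dose. IgG cells grew from LSK cells on human IgG1 without a ligand. All cultures had SCF, FLT-3 ligand, IL-6 and IL-11, and only the DN2 cultures also had IL-7, so stage and IL-7 cannot be told apart between DN1 and DN2. No gene was altered in any group, the cells were sorted or cultured populations and not single cells, and the culture without ligand holds whatever cells the 4 factors let grow. LSK isolates were the source of the DN cells, and which libraries share an isolate is not stated, so the p-values treat libraries as exchangeable.

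Each library is a list of 150 bp peaks with a whole-number score, and a site is described by the percentile of its score within that library, with 0 where no peak was called. Lists held 53869 to 62377 peaks in LSK, 69391 to 96436 in DN1, 57729 to 68478 in DN2a, 61484 and 111582 in DN2b, and 32952 to 37511 in IgG. A longer list adds low-scored peaks, which raises the percentile of every stronger peak, so values are also given at equal length, with the 32952 top peaks of each library. Shortening a list spreads the percentiles of the peaks kept, most in the longest lists. Differences in points are therefore not comparable in size between whole and shortened lists. Read depth is unknown. Marker promoters (a peak within 1 kb of the gene start) matched the labels for the T lineage: of 7 early T genes, LSK had 1 to 2 open, DN1 4, DN2a and DN2b 7 each, and IgG 0. Of 6 stem and progenitor genes, 4 to 5 were open for LSK, 4 for DN1, 3 to 4 for DN2a, 4 for DN2b and 2 to 3 for IgG, with Kit open in all 12 libraries and Ly6a, which encodes SCA1, in none. Neutrophil and monocyte genes were open at 1 to 2 of 6 in LSK, 2 in DN1 and DN2a, 2 to 3 in DN2b and 3 to 4 in IgG. The other lists gave 2 of 5 B cell genes in every library on Delta1 or fresh from marrow and 1 to 2 in IgG, 1 to 4 of 4 dendritic cell genes, and 0 to 2 of 4 erythroid genes. These promoter counts, from lists as deposited, were not set against the share of all coding genes open in each library.

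PU.1 is an ETS family transcription factor that drives myeloid and B cell fates, is active in multipotent progenitors and the earliest T cell precursors, and is shut down as precursors commit to the T lineage. Its gene is controlled by the promoter together with an upstream regulatory element (URE) about 14 kb before the start in the mouse, at which RUNX1, PU.1 itself and other factors act. Spi-B works in B cells, plasmacytoid dendritic cells and early T cells, and Spi-C in iron-recycling macrophages of the spleen. All bind much the same purine-rich site through an ETS domain.

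The sequences on which the results turn are 200 bp of GRCm38 (the assembly of mm10) centred on the DHS, 5′ to 3′ along the strand of the gene. Capitals mark matches, on either strand, to 5 short motifs. These are TGTGGT for RUNX factors, GAGGAAGT for PU.1 and its relatives, TTGCNNAA for C/EBP factors, AGATAA for the GATA family, and CANNTG, the E-box of helix-loop-helix proteins. The first 4 are Spi1 elements whose openness varied among the groups: the site 15.4 kb upstream, the URE 13.6 kb upstream, and 2 intronic sites 1.7 kb and 4.9 kb downstream of the start.
Spi1 15.4 kb upstream, chr2:91081202-91081401, + strand: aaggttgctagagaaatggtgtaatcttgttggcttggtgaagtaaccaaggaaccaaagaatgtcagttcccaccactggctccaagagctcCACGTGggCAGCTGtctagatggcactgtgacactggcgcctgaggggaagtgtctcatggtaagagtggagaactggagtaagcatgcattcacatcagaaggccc
Spi1 URE, chr2:91082972-91083171, + strand: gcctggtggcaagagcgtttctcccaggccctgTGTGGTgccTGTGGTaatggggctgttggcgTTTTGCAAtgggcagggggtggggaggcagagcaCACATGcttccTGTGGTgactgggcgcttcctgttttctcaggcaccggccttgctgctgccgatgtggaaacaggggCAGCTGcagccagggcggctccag
Spi1 1.7 kb downstream, chr2:91098282-91098481, + strand: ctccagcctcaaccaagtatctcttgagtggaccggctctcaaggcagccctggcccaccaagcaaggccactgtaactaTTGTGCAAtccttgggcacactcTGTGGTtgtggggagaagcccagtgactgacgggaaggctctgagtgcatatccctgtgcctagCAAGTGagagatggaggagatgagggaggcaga
Spi1 4.9 kb downstream, chr2:91101472-91101671, + strand: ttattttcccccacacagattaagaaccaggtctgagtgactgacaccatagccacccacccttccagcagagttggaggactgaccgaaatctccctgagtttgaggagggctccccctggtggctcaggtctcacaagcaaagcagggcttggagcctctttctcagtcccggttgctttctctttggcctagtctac
The URE held 3 TGTGGT, 1 TTGCNNAA and 2 CANNTG matches. Across the 170203 consensus windows of the same length without unread bases, 26.9% held at least 1 TGTGGT, 0.637% held 3 or more, 10.04% held TTGCNNAA and 67.5% held CANNTG. The site 1.7 kb downstream held 1 match each to TGTGGT, TTGCNNAA and CANNTG, the site 15.4 kb upstream 2 to CANNTG, and that 4.9 kb downstream none. Among the 82 members TGTGGT was found in 23, GAGGAAGT in 3 (6.41% of all windows), TTGCNNAA in 10, AGATAA in 4 (10.7% of all windows) and CANNTG in 59. A match describes letters only, and its absence says nothing of the factor.

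The URE was open in all 12 libraries and stood near the top of the lists of LSK and IgG cells. It lay at chr2:91082977-91083166, in an intron of Spi1 transcripts that begin far upstream of the main start, 682 bp after the start of the gene record. Its percentile was 94.0, 93.6 and 91.7 in the LSK libraries, 89.8 and 77.0 in DN1, 78.6 and 81.5 in DN2a, 66.8 and 83.3 in DN2b, and 94.7, 94.0 and 93.8 in IgG. Group means fell in the order IgG (94.2 ± 0.446, SD, n = 3), LSK (93.1 ± 1.20, n = 3), DN1 (83.4 ± 9.02, n = 2), DN2a (80.0 ± 2.04, n = 2) and DN2b (75.1 ± 11.7, n = 2). LSK lay wholly above DN1 and DN1 overlapped both DN2 groups, while IgG and LSK also overlapped.

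The mean of the 4 DN2 libraries, 77.5, was lower than the 89.2 of the 5 LSK and DN1 libraries by 11.7 percentile points (two-sided exact permutation test on library means, p = 0.0476). The sets overlapped, since DN1 replicate 2 lay at 77.0. Leaving out 1 library gave differences from -14.7 to -8.08, and p rose above 0.05 on leaving out any library other than DN1 replicate 2 (exact permutation p from 0.0286 to 0.143). In the culture without ligand the URE was higher than in the 6 Delta1-cultured libraries (94.2 against 79.5, a difference of 14.7, two-sided exact permutation test with 84 divisions, p = 0.0238), and all 3 IgG libraries exceeded all 6. With any IgG library, DN1 replicate 2 or DN2a replicate 1 left out, the difference stayed between 14.2 and 14.8 but exact permutation p rose to 0.0536 or 0.0714. At equal length the 2 differences were -25.9 (exact permutation p = 0.0476) and 39.2 (exact permutation p = 0.0119, the smallest these divisions allow). There the percentile was 90.1, 89.3 and 84.3 in LSK, 70.1 and 51.6 in DN1, 55.5 and 67.5 in DN2a, 38.0 and 43.6 in DN2b, and 93.9, 94.0 and 93.0 in IgG, so DN2b lay below every other library. In populations of cells, a URE open in fewer cells and one less open in each cell cannot be told apart.

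The DHS at the Spi1 start (chr2:91096617-91096806, over a 5′ UTR exon) was also open in all 12 libraries and was lower in DN2. Its percentile was 83.0, 79.9 and 84.1 in LSK, 80.4 and 77.8 in DN1, 69.6 and 59.5 in DN2a, 52.6 and 74.3 in DN2b, and 83.0, 62.3 and 77.2 in IgG. All 4 DN2 libraries lay below all 5 LSK and DN1 libraries, with IgG spread over both ranges. The order of the means was LSK (82.3 ± 2.17, SD, n = 3), DN1 (79.1 ± 1.83, n = 2), IgG (74.1 ± 10.7, n = 3), DN2a (64.5 ± 7.17, n = 2) and DN2b (63.4 ± 15.4, n = 2). IgG overlapped every other group, DN1 overlapped LSK, and the DN2 groups overlapped each other. The DN2 mean of 64.0 was 17.04 points under the 81.0 of LSK and DN1 (exact permutation test, p = 0.00794, the smallest these 9 libraries allow), and the difference stayed between -20.5 and -13.2 with any library left out. IgG and Delta1-cultured cells differed by 5.13 points (74.1 against 69.0, exact permutation p = 0.5).

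At equal length the differences in points at the start site were larger, on the wider scale of the shortened lists. Its percentile was 72.2, 66.7 and 69.9 in LSK, 42.5 and 53.2 in DN1, 36.8 and 29.0 in DN2a, 11.5 and 13.04 in DN2b, and 80.6, 62.3 and 74.0 in IgG. The DN2 difference was then -38.3 (exact permutation p = 0.0159), and IgG exceeded the Delta1-cultured libraries by 41.3 (exact permutation p = 0.0119). The comparison of IgG with Delta1 therefore changed with list length, and the IgG lists were the shortest.

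**Figure D1:**
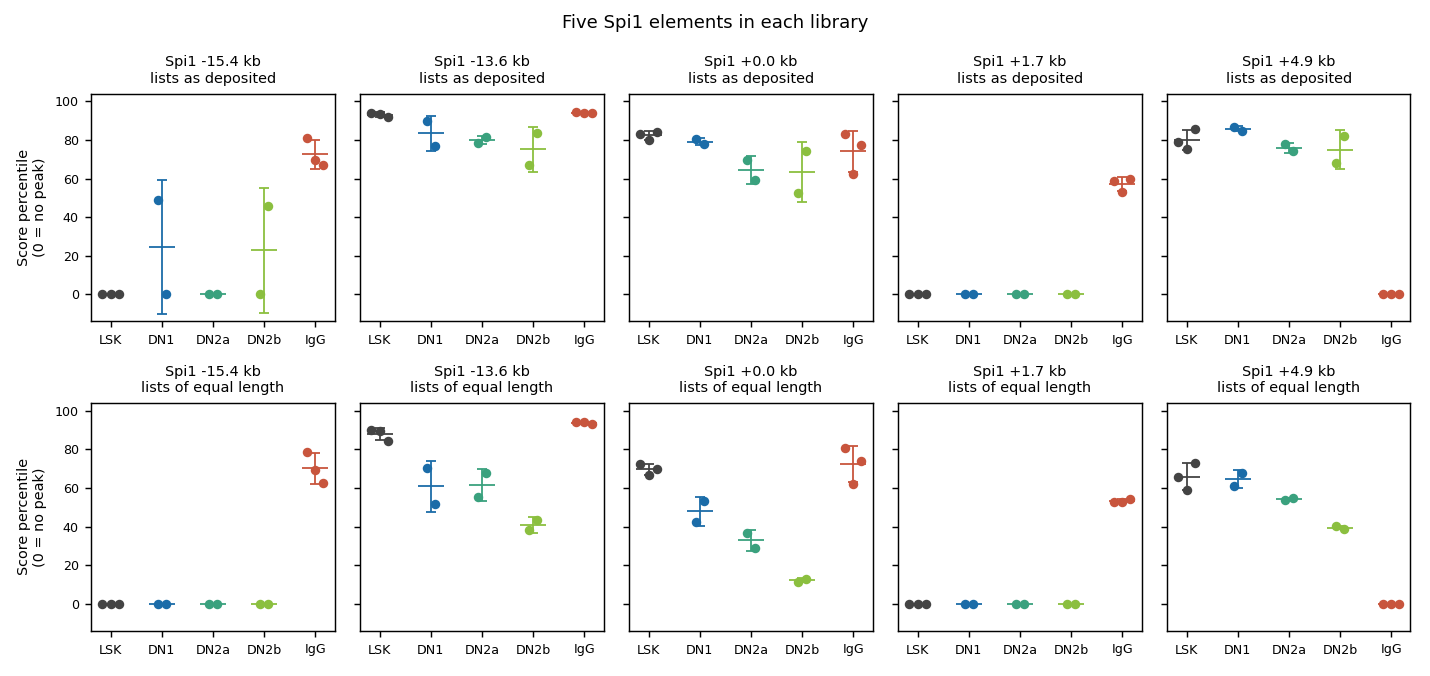
Score percentile (vertical axis, 0 to 100, 0 = no peak) of 5 Spi1 sites in each library, by group (horizontal axis), with lists as deposited above and at equal length below; points are libraries, bars the mean ± SD of 2 or 3 libraries. At the start site DN2b falls from 52.6 and 74.3 to 11.5 and 13.04 at equal length, and the site 4.9 kb downstream is at 0 in all 3 IgG libraries in both rows.

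Within the gene, 2 intronic DHSs separated the culture without ligand from the cells on Delta1. The site 4.9 kb downstream (chr2:91101477-91101666) was at 78.9, 75.1 and 85.8 in LSK, 86.7 and 84.8 in DN1, 77.8 and 74.1 in DN2a, and 67.9 and 82.0 in DN2b, and no IgG library had a peak. The site 1.7 kb downstream (chr2:91098297-91098466) showed the reverse, at 58.6, 52.8 and 59.8 in the IgG libraries and without a peak in the other 9. Both patterns were the same at equal length, with 9 and 3 libraries still carrying the peak. DN2b was again the lowest of the 4 groups with the 4.9 kb peak at equal length, at 40.1 and 38.9 against 53.9 to 73.0 in LSK, DN1 and DN2a.

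The region just upstream of the URE differed in the same culture. The DHS 15.4 kb upstream (chr2:91081197-91081406, between genes) was at 81.1, 69.5 and 66.9 in IgG, at 48.9 in DN1 replicate 1 and at 45.6 in DN2b replicate 2, the 2 longest lists, and at 0 elsewhere. IgG lay above all others, and at equal length it alone kept the peak. The remaining DHSs 13 to 16 kb upstream were sparse: that at 13.1 kb had a peak only in DN1 (48.9 and 55.1), and that at 15.6 kb only in DN2b replicate 2 (35.3). At equal length only DN1 replicate 2 kept the 13.1 kb peak, at 5.55, and no library kept that at 15.6 kb. The intronic DHS 9.0 kb upstream (chr2:91087597-91087766) had peaks in both DN2b libraries (52.6 and 72.3), DN1 replicate 1 (53.7) and DN2a replicate 1 (47.4), and none in LSK or IgG. At equal length only the DN2b libraries kept it, at 11.5 and 6.14.

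**Figure D2:**
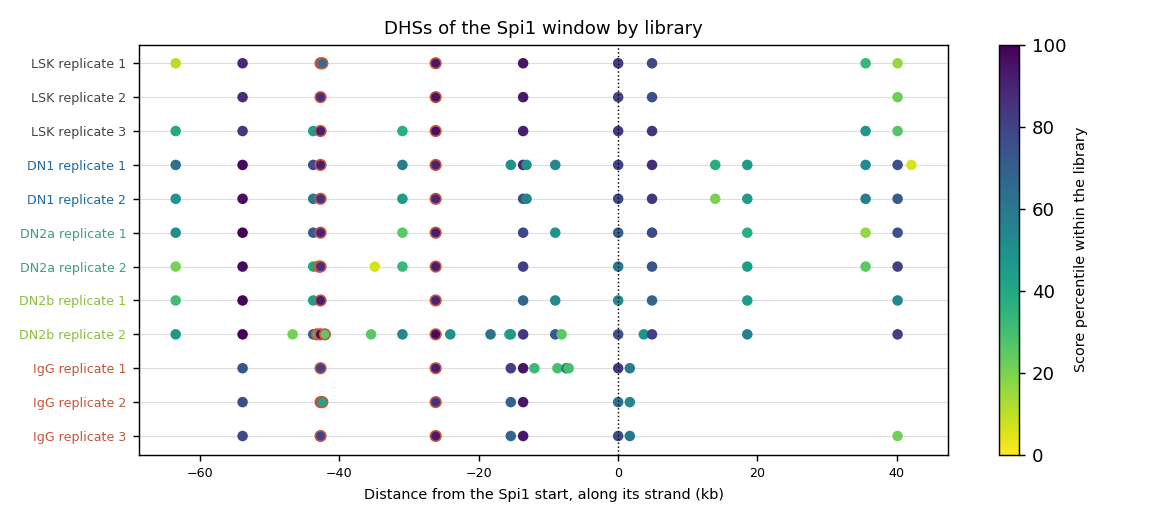
Each point is a DHS of the Spi1 window with a peak in that library (rows, labels coloured by group), placed by distance from the Spi1 start in kb along its strand, with the colour giving the score percentile; a red ring marks a site within 1 kb of the start of another protein-coding gene. The URE at 13.6 kb upstream and the start site are in all 12 rows, and the point at 4.9 kb downstream is missing from the 3 IgG rows.

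The farther Spi1 DHSs with a consistent pattern were higher in cells on Delta1. The site with the highest mean percentile over the 12 libraries, sites at other gene starts aside, lay 53.9 kb upstream in a non-coding exon of the Rapsn gene (an organizer of the neuromuscular synapse). It was at 88.9, 87.3 and 84.1 in LSK, 97.4 and 96.4 in DN1, 99.5 and 97.3 in DN2a, 98.5 and 99.1 in DN2b, and 73.4, 76.3 and 78.0 in IgG. IgG was lowest, LSK next and the Delta1-cultured libraries highest, without overlap between these sets, and the order was the same for these sets at equal length except that 2 IgG libraries, at 76.3 and 74.9, then exceeded the lowest LSK library at 69.9. In LSK and IgG the URE ranked above it in each library. The site 40.1 kb downstream was at 15.3 to 26.9 in LSK and 54.3 to 81.5 on Delta1, with 1 IgG library at 21.2 and the others at 0. At equal length it was at 0 in all 3 LSK libraries, 14.7 to 66.3 on Delta1 and 10.3 in that IgG library. The sites 63.5 kb and 43.7 kb upstream were in all 6 Delta1-cultured libraries (20.5 to 63.2 and 40.0 to 76.5) and in no IgG library, but at equal length only 1 and 4 libraries kept them.

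A DHS inside the last coding exon of Spi1, which encodes part of the ETS domain, was called 18.6 kb downstream (chr2:91115157-91115326) in all 6 Delta1-cultured libraries, at 45.4 and 45.2 in DN1, 37.2 and 44.5 in DN2a, and 44.9 and 55.9 in DN2b. No LSK or IgG library had it, but at equal length 1 library kept it, so its absence from the shorter IgG lists says little. Of the Spib sites away from other gene starts, that with the highest mean percentile over the 12 libraries lay over the matching coding exon, 3.9 kb downstream of the Spib start. The 2 windows are printed as related coding sequence under a DHS; the best ungapped alignment paired 139 bases, of which 106 (76.3%) were identical.
Spi1 18.6 kb downstream, chr2:91115142-91115341, + strand: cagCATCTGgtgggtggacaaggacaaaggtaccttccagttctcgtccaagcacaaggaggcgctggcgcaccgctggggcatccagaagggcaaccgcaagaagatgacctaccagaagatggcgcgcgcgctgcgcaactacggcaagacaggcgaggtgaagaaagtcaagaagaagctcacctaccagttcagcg
Spib 3.9 kb downstream, chr7:44528052-44528251, - strand: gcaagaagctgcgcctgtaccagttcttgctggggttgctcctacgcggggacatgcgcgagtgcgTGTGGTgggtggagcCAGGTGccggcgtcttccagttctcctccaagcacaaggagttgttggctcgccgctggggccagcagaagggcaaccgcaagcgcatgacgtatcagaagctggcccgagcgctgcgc
The Spib exon site (chr7:44528037-44528266) was in all 12 libraries, at 71.3, 76.0 and 71.6 in LSK, 60.7 and 22.4 in DN1, 67.3 and 48.6 in DN2a, 57.5 and 76.8 in DN2b, and 77.7, 62.3 and 48.9 in IgG. The groups overlapped, apart from LSK lying above DN1 and DN2a. At equal length both DN1 libraries lost the peak, and LSK (46.3 to 60.3) and IgG (41.9 to 74.6) lay above DN2a and DN2b (9.99 to 32.1).

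Unlike Spi1, neither Spib nor Spic had a start site open across the groups. The only Spib peak within 1 kb of its start was 0.7 kb downstream in DN2b replicate 2 (52.2). At the Spic start (0.079 kb upstream) LSK replicates 2 and 3 had peaks at 34.5 and 13.3 and DN1 replicate 1 at 10.04, and no library kept the peak at equal length. Over all 21755 protein-coding genes, 36.2% had a promoter peak in all 12 libraries and 37.5% in none.

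From the distal DHSs of Spib and Spic, 2 are shown next, one with peaks only in IgG among these 12 libraries and one lowest in fresh LSK cells.
Spib 25.0 kb upstream, chr7:44557002-44557201, - strand: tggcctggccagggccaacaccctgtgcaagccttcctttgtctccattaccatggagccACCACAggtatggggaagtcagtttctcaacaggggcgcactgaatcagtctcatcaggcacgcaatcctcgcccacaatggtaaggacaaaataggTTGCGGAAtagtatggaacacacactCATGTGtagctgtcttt
Spic 25.8 kb upstream, chr10:88708772-88708971, - strand: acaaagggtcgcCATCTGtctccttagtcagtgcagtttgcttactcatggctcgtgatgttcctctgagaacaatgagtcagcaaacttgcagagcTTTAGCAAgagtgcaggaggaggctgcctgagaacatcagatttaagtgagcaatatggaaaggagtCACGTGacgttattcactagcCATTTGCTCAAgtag
The Spib site held 1 match each to TGTGGT, TTGCNNAA and CANNTG. The site was at 71.6, 62.3 and 37.6 in IgG and absent from the other 9 libraries, also at equal length. The site 29.2 kb upstream of Spib went the other way. All 9 LSK, DN1, DN2a and DN2b libraries had it, at 60.5 to 80.6, whereas IgG had it only in replicate 1, at 48.7. At equal length that IgG value (41.6) fell within the range of the others (19.5 to 48.2). The Spib site 30.1 kb downstream, in an intron of Mybpc2, was at 30.5 to 70.8 on Delta1, 38.6 to 48.7 in LSK, and 0, 23.1 and 21.2 in IgG. At equal length the lower IgG values were not seen, with LSK at 0 to 2.88, both DN1 libraries at 0, DN2 at 1.20 to 21.6 and IgG at 0, 23.1 and 10.3. The site 10.2 kb downstream was in 8 libraries, including all 3 of LSK (36.0, 28.6 and 26.9) and none of IgG, but none kept it at equal length.

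The Spic site 25.8 kb upstream held 2 TTGCNNAA and 3 CANNTG matches, of which 1 pair overlapped. It was in all 12 libraries, at 33.1, 44.6 and 56.4 in LSK, 84.5 and 71.7 in DN1, 68.5 and 89.1 in DN2a, 81.0 and 88.9 in DN2b, and 77.7, 60.6 and 81.9 in IgG. Every cultured library, with or without ligand, lay above every LSK library, and at equal length the LSK values were 0, 8.35 and 17.5 against 34.5 to 80.9 in culture. Close to it, the site 25.2 kb upstream had peaks in DN1 (53.7 and 67.2) and DN2b (61.8 and 59.2) and in no other library, DN2a included, but at equal length only DN1 replicate 2 (30.8) and DN2b replicate 1 (28.8) kept it. The site 29.5 kb upstream was at 65.0, 62.1 and 59.8 in LSK, 56.6 and 38.3 in DN1, 0 in both DN2a libraries, 0 and 28.9 in DN2b, and 50.7, 26.2 and 50.9 in IgG, so that DN2 lay below LSK and DN1 without overlap. At equal length it remained in the 3 LSK and 3 IgG libraries and in no other.

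**Figure D3:**
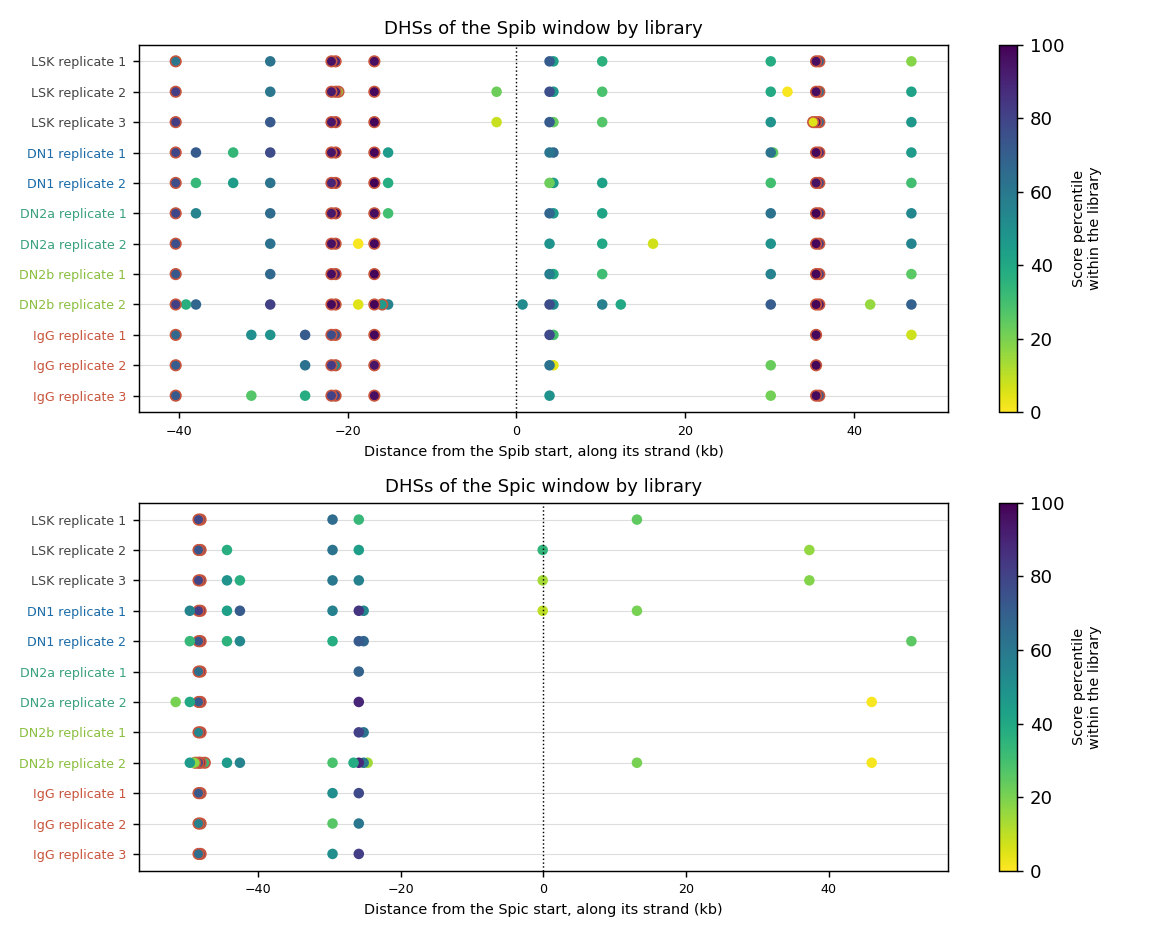
DHSs of the Spib window (top) and the Spic window (bottom) with a peak in each library (rows), by distance in kb from the gene start along its strand, coloured by score percentile; a red ring marks a site within 1 kb of another protein-coding gene start. Points at 25.0 kb upstream of Spib occur in the 3 IgG rows alone, and the point 25.8 kb upstream of Spic is in all 12 rows.

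To count such patterns, a site was called when every library of a set had a peak and no library of the other did (presence), or when every library of a set had a higher percentile than every library of the other (rank), and the share of all DHSs meeting the same rule was taken as background. No p-value belongs to these counts. Between DN2 and LSK with DN1, presence called 0 of 75 members higher in DN2 (0.844% of all DHSs tested) and 0 higher in LSK and DN1 (0.817%). Rank called 1 higher in DN2 (2.95%), a site 35.5 kb from the Spib start at the start of Fam71e1, and 2 lower in DN2 (2.30%), the Spi1 start site and the Spic site 29.5 kb upstream. These shares are near the background. At equal length presence again called 0 of 33 in either direction (2.74% of all DHSs in DN2 and 1.54% in LSK and DN1), and rank called 3 higher in DN2 (6.85%) and 2 lower (4.69%), the Spi1 start site and the site 4.9 kb downstream of it. Presence called 1 of 56 in either direction without DN2b replicate 2 (2.37% of all DHSs tested in the same setting), and rank 6 of 73 without DN1 replicate 1 (8.04%).

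Between IgG and Delta1-cultured libraries, presence called 2 of 77 members in IgG (2.43% of all DHSs), the sites 1.7 kb downstream of Spi1 and 25.0 kb upstream of Spib, and 4 on Delta1 (7.37%), all in the Spi1 window. Rank called 4 higher in IgG (3.51%), which adds the URE and its neighbour 15.4 kb upstream, and 15 higher on Delta1 (14.7%). At equal length the balance turned. Presence then called 4 of 40 members in IgG (8.14% of all DHSs), the sites 15.4 kb upstream of Spi1 and 29.5 kb upstream of Spic being the additions, and on Delta1 only the site 4.9 kb downstream of Spi1 (5.47%). Rank called 9 higher in IgG (12.7%), the URE and Spi1 start among them, and 4 higher on Delta1 (10.5%).

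Between LSK and IgG, presence called 2 of 45 in LSK (14.5%) and 3 in IgG (4.61%), and rank called 12 higher in LSK (30.0%) and 5 higher in IgG (7.27%). Here too the balance of the rank calls turned at equal length, to 3 of 32 higher in LSK (19.1%) and 6 higher in IgG (14.6%), and presence called 1 in LSK (8.86%) and 3 in IgG (9.15%). Between LSK and DN2b, presence called 0 of 65 in LSK (3.49%) and 3 in DN2b (11.6%), and rank called 3 higher in LSK (6.90%), namely the URE, the Spi1 start and the Spic site 29.5 kb upstream, and 12 higher in DN2b (22.3%). At equal length rank called 6 of 27 higher in LSK (23.0%) and 8 higher in DN2b (23.4%), and presence 1 in LSK (10.5%) and 2 in DN2b (13.6%). Comparisons that used the same LSK or IgG libraries are not independent. Without LSK replicate 1 presence called, in either direction, 9 of 44 between LSK and IgG (25.3% of all DHSs tested in the same setting) and 6 of 64 between LSK and DN2b (17.8%). Leaving out DN2b replicate 1 leaves DN2b with only the longest list, so that a single peak meets the rules. Presence then called 28 of 65, all in DN2b (42.0% of all DHSs), and rank 49 higher in DN2b (70.9%) and 3 higher in LSK (7.26%). Without DN2b replicate 2, presence called 4 of 40 in either direction (29.9%) and rank 19 (57.9%).

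The number of DHSs per window differed widely between the DN2b replicates, whose lists differ most in length. The Spi1 window had 10, 7 and 11 in LSK, 17 and 14 in DN1, 13 and 14 in DN2a, 11 and 22 in DN2b, and 11, 8 and 8 in IgG. The Spib window had 12 to 15 in LSK, 15 in both DN1 libraries, 13 to 14 in DN2a, 12 and 20 in DN2b and 9 to 11 in IgG, and the Spic window 5 to 8, 9 to 10, 3 to 6, 4 and 15, and 4 in each IgG library. DN2b replicate 2, the longest list, had the most in each window, and of the 16, 10 and 7 sites seen in 1 library only it supplied 9, 5 and 5.

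DN2 did not differ past the test from LSK and DN1 in the Spi1 window (15 against 11.8 sites, difference 3.2), the Spib window (14.75 against 14.2, difference 0.55) or the Spic window (7 against 7.8, difference -0.8), with exact permutation p of 0.357, 0.881 and 0.825. IgG had fewer than the Delta1-cultured libraries in the Spib window (10 against 14.8, difference -4.83, exact permutation p = 0.0238), with no overlap, though p was 0.0536 to 0.143 with any IgG or either DN1 library left out; the differences in the Spi1 window (9 against 15.2, -6.17) and the Spic window (4 against 7.83, -3.83) did not pass (exact permutation p = 0.0595 and 0.262; 0.0179 for Spi1 without DN2b replicate 1). At equal length all 3 turned positive, at 0.333, 0.5 and 0.333 (exact permutation p = 0.821, 0.75 and 0.607). By the rule of no overlap, 41.6% of all gene windows had more sites on Delta1 than in IgG, as did 1 of these 3, and 0.223% had more in IgG, as did 0. DN2 had more than LSK and DN1 in 0.543% of windows and fewer in 0.483%, and 0 of the 3 in either direction. Altogether 10 tests were made on the windows and on the 2 Spi1 elements, and the p-values were not adjusted.

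**Figure D4:**
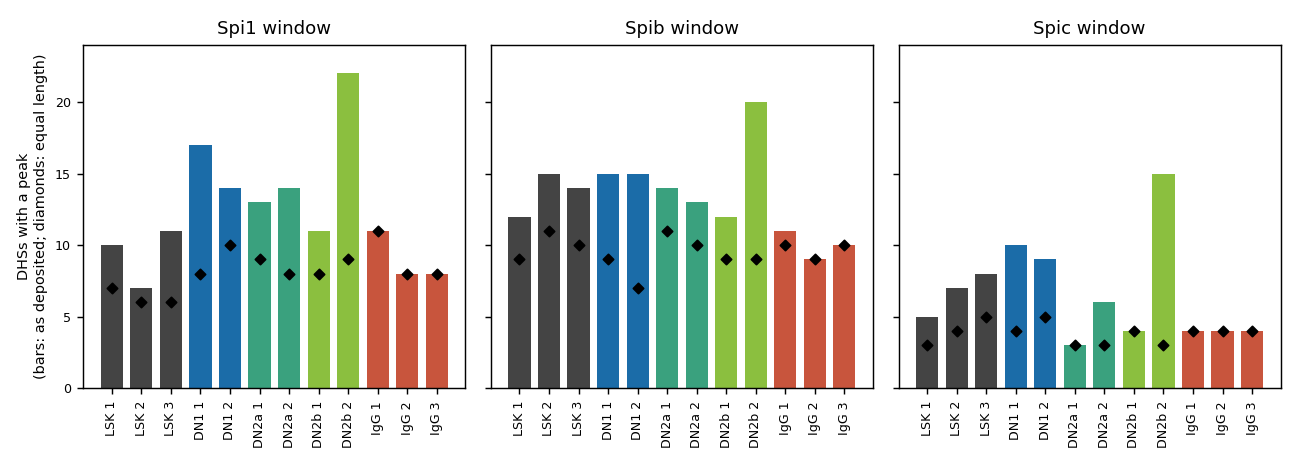
Number of DHSs with a peak (vertical axis) in the windows of Spi1, Spib and Spic for each library (horizontal axis, group and replicate); bars are lists as deposited, coloured by group, and diamonds lists of equal length. The bar of DN2b replicate 2 is the tallest in each panel (22, 20 and 15), and the diamonds of that library are at 9, 9 and 3.

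The sites shared by all 12 libraries were mostly at other genes. All 12 had a peak in 5 Spi1, 6 Spib and 3 Spic members, of which 3, 1 and 1 were not within 1 kb of another coding gene start. Those were the URE, the start site and the 53.9 kb site of Spi1, the exon site of Spib and the 25.8 kb site of Spic. Over all DHSs 32.7% were in 1 library and 7.68% in all 12.

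Genes known to act on Spi1 or alongside PU.1 were read by their promoters. Of 12, LSK had 5 to 7 open, DN1 and DN2a 8, DN2b 8 to 10, and IgG 4 to 5. These counts are from lists as deposited, of which those of IgG were the shortest and that of DN2b replicate 2 the longest. The share of all coding genes open in each library was not taken, so whether this order is particular to these genes was not tested. Runx1, which acts at the URE, and Cebpa, a myeloid partner of PU.1, were open in all 12 libraries, Cebpa at a mean percentile of 87.0 ± 3.56 (SD here and for the genes that follow) for the 3 LSK libraries, 79.9 ± 5.19 for the 2 DN1, 71.1 ± 4.79 for the 2 DN2a, 78.0 ± 8.72 for the 2 DN2b and 95.4 ± 0.976 for the 3 IgG libraries. Gfi1, a repressor that opposes PU.1, Tcf7, a Notch-driven T cell factor, and Bcl11b, the T lineage commitment factor, had a promoter peak in all 6 Delta1-cultured libraries and in no IgG library, 3 of 12 against 2.62% of all coding genes. This call used lists as deposited and was not repeated at equal length. Tcf7 stood at 44.4 ± 1.11 for the 2 DN1 libraries, whose lists were longer than those of IgG. The 12 genes were also chosen with earlier results of these data known. Bcl11b stood at 18.2 ± 10.9 for the 3 LSK libraries and 96.9 ± 0.719 for the 2 DN2b libraries. No promoter of the list was open in all DN2 libraries and no LSK or DN1 library, or the reverse (0.0781% and 0.207% of coding genes), and Gata1 and Ikzf1 had no peak at the start of their gene record. Tcf7 and Bcl11b are also among the early T markers.

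Of 15 genes that PU.1 or its relatives are known to regulate, LSK had 7 to 10 open promoters, DN1 8 to 9, DN2a 6 to 7, DN2b 6 to 8 and IgG 6 to 8, and 0 met the presence rule in either comparison (0.322% of coding genes met it in IgG). The counts of open promoters are likewise from lists as deposited, without the share of all coding genes open in each library beside them. The interleukin 7 receptor gene Il7r was at 44.7 ± 7.77 for the 3 LSK libraries, 91.8 ± 1.46 for the 2 DN1 libraries and 7.07 ± 12.2 for the 3 IgG libraries. In the 2 DN2a and 2 DN2b libraries Il7r was at 82.2 ± 8.94 and 80.1 ± 0.642. Tlr4, a receptor for bacterial lipopolysaccharide, was at 82.6 ± 4.23 for the 3 LSK libraries, 75.8 ± 2.95 for the 2 DN1 libraries and 77.2 ± 7.87 for the 3 IgG libraries, and had a peak in 1 of 2 libraries each of DN2a and DN2b. The myeloid receptor chain Csf2ra stood highest in IgG, at 69.6 ± 13.6 (SD, n = 3) against 15.5 ± 16.7 for the 3 LSK libraries. Among the neutrophil and monocyte markers, Lyz2 was open in all 12 libraries and Itgam in 11, Cebpe in 2 IgG libraries and 1 of DN2b, and Elane, Mpo and Csf1r in 1 IgG library each and in no other. Their part in the IgG values at Spi1 was not tested.

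The promoters whose percentiles over the 12 libraries were most like the Spi1 start site, among 13605 coding genes compared, were Dennd5a (Pearson r = 0.947), Ier5l (0.943), Tspan17 (0.921), Jup (0.920) and Sgms1 (0.916). Jup, which encodes the junction protein plakoglobin, had a mean percentile of 95.3 for LSK, 87.1 for DN1, 57.5 for DN2a, 49.6 for DN2b and 64.2 for IgG. For the URE they were the shared promoter of Hnrnpa2b1 and Cbx3 (0.965), Diexf (0.915), Ddx17 (0.913) and Rhob (0.912). These are descriptions over libraries that share groups and list lengths.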

How the data were processed

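DNase-seq had been run on 12 libraries. The authors aligned reads to mm10 with BWA (version 0.7.12 in the submitters' processing notes, with SAMtools 1.2) and called peaks with hotspot2, 1 list per library. Each deposited list gives a score per 150 bp peak, whole numbers up to 150 with no stated meaning, used only for ranks. Peaks on autosomes and X were merged over all libraries where they overlapped by 1 bp. A percentile is the rank of a score within its list as a share of the list length, with tied scores given their mean rank. A site took the highest percentile among the peaks of that library in it. Gene annotation was GENCODE M21, starts and sequence RefSeq GRCm38. Group differences were tested by exact permutation of library means (Python 3.11.15, SciPy 1.17.1). The code of that test was compared with the SciPy version on random numbers. The merging and the presence rule were checked on 200 sites planted in the lists away from other peaks. Those sites say nothing of the permutation test. Groups followed the labels. Replicate numbers are deposition order and names only. By the methods, replicates came from separate LSK isolates.

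Named sites were those at the gene starts, 13 to 16 kb upstream of Spi1, the 3 with the highest mean percentile over all libraries per window away from other gene starts, and all called by presence. The members and gene lists were chosen with earlier results of these data known. The sequence at the Spi1 start is not printed because it overlaps a UTR. A promoter sequence was taken for none of the 3 genes. Depth is unknown, so lists of equal length, the upper 50% of each list, other merging (75 bp of overlap, gaps to 150 bp), windows of 20 and 100 kb, sites at other gene starts removed, each library left out and, chosen after seeing the data, another annotated Spi1 start were tried.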

Additional observations from a re-analysis of the deposited data

How the results depend on the processing

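No paired analysis was possible because the labels give no replicate numbers that tie libraries of different groups. The lower Spi1 start site in DN2 kept its direction and passed the test in every alternative run, from -20.5 to -13.2 with 1 library left out. For IgG against Delta1 at that site, equal list lengths gave 41.3, now past the test, and leaving out a library gave 0.708 to 11.1. The URE difference of DN2 ranged from -14.7 to -8.08 and that of IgG from 12.1 to 16.7 with 1 library left out, and lost the test in 8 and 5 of 9 such fits. In the windows, equal list lengths, which keep a smaller part of the long lists, reversed IgG minus Delta1. The differences became 0.333 (Spi1), 0.5 (Spib) and 0.333 (Spic), and the cause was not tested. The Spi1 value passed the test when peaks were merged at 75 bp of overlap (-6.83) or with 100 kb windows (-9.17), and the Spib value lost it in the upper 50% of each list (-3.5), at 75 bp (-4.17) and without sites at other gene starts (-4); the cause was not tested. With 1 library left out these ranged from -7.17 to -4.8 (Spi1), -5.4 to -3.8 (Spib) and -4.8 to -2.4 (Spic), and for DN2 from 0.867 to 4.53, -1.2 to 1.47 and -3.47 to 0.533. The Spib sign turned without DN2b replicate 2 (-1.2), and the Spic sign without DN2a replicate 1 (0.533) or DN2b replicate 1 (0.2). Presence calls moved from 6 to 3 with 20 kb windows (IgG against Delta1, 6 to 8 leaving out a library), from 5 to 8 with 100 kb (LSK against IgG, 5 to 9), and from 3 to 5 in the upper 50% and 9 with 100 kb (LSK against DN2b, 4 to 28; the 28 came without DN2b replicate 1, which leaves DN2b with 1 library, the longest list, so that a single peak meets the rule, and is 28 of 65 against 42.0% of all DHSs higher in DN2b; without replicate 2 it was 4), and were 0 to 1 for DN2. Rank calls went at equal length from 19 to 13 (IgG against Delta1), 17 to 9 (LSK against IgG) and 3 to 5 (DN2), with the turns in direction given above. The DN2 rank count was 6 without DN1 replicate 1 (8.04% of all DHSs). For LSK against DN2b it went from 15 to 52 on that 1 longest DN2b list (78.1% of all DHSs) and to 19 on the other (57.9%). With windows of 20 and 100 kb, which hold fewer and more sites, the rank counts were 1 and 5 (DN2), 5 and 28 (IgG against Delta1), 5 and 27 (LSK against IgG) and 4 and 28 (LSK against DN2b), and 11 for LSK against IgG without sites at other gene starts. Of the values recomputed, 78 of 96 window differences and 46 of 60 percentile differences kept their direction and side of the threshold, and the Spib window difference of DN2 was 0 without LSK replicate 1. In total number, whatever the sites or direction, 49 of 57 presence and 45 of 57 rank counts stayed within 1.5 times the count as deposited. Of those 49 presence counts only 34 were not 0, and a count of 0 beside 0 says nothing of stability.

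Unknown read depth, 2 or 3 libraries per group, and lists of 32952 to 111582 peaks limit what a missing peak can show. Sites of low percentile are the most affected, since few of them survive at equal length.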
